A study of Mus musculus with 6 samples.

Results

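Mouse genes derived from retroelements, and a gene that restricts retroviruses, were followed in whole mouse brain, in animals heterozygous for a knockout of periphilin (Pphln1) and in wild-type littermates. The genes were Fv1, Peg10, Pnma1, Pnma2, Ldoc1, Rtl8c and Rtl8a. Every probe set that the platform annotation gives to exactly 1 of these 7 genes was taken, which found 7 probe sets among 45037 (6 of the 7 genes). Pnma2 had 2 of them, and Fv1, Peg10, Pnma1, Ldoc1 and Rtl8c had 1 each. Rtl8a had none of its own, because the probe set that names it, 1423816_at, also names Rtl8b. The study profiled whole brains of 3 male heterozygous periphilin knockout mice and of 3 male wild-type C57BL/6 littermates, all 2 months old, with 1 microarray per brain. Apart from the disrupted Pphln1 copy, the labels name no allele, transgene or treatment in either group, and they do not say where in the gene the disruption lies or how many founder lines were used.

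Long terminal repeat retroelements carry a gag gene for the capsid that packages their RNA, and mammals have kept several gag copies as ordinary genes. Peg10, Ldoc1 and the Rtl8 genes descend from Ty3/gypsy elements, the PNMA genes from a related gag, and Fv1 from the gag of an endogenous retrovirus. Periphilin is a subunit of HUSH, a complex that silences retroelements and some genes by recruiting a histone H3K9 methyltransferase, and the comparison asked how losing 1 copy of its gene alters the brain transcriptome.

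None of the 6 tested probe sets of these genes passed the test, against 0.0148% of all 27022 probe sets tested (limma, Benjamini-Hochberg adjusted p below 0.05). The smallest adjusted p among them was 0.956, and 1 of the 6, Fv1, had an unadjusted p below 0.05, against 4.86% of all probe sets. Fv1 was lower in all 3 heterozygous brains than in the wild-type brains. Pnma2 was slightly lower at both of its probe sets, Ldoc1 and Rtl8c were slightly higher, and Pnma1 differed little between the means. Peg10 was too dim to be tested. All differences are heterozygous minus wild type on the log2(intensity + 16) scale, which understates changes of dim probe sets, and whole-brain signal cannot tell fewer expressing cells from less RNA per cell.

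The arrays resembled each other closely, with log2 correlations of 0.978 to 0.985 between pairs. Markers of brain cells were present: all 5 neuronal markers, all 4 astrocyte markers and all 4 microglial markers lay above the dim limit of 19.1, and none was called. Albumin, the liver marker, lay below that limit on average, although it measured 24.2 in heterozygous brain 1. Summed skeletal muscle markers (Acta1 and Ckm) ran from 140 to 216 in heterozygous and from 107 to 142 in wild-type brains, and Acta1 overlapped between the genotypes. Ckm measured 36.9, 26.6 and 29.7 in heterozygous brains, against 15.5, 6.07 and 15.3 in wild-type brains, without overlap. Its log2 difference was 0.75 (limma unadjusted p = 0.00516, limma adjusted p = 0.956). The wild-type mean of 12.3 lay below the dim limit, so Ckm entered the test through the heterozygous brains. The part of Ckm in the members' values was not tested. Summed pituitary markers (Pomc, Prl and Gh) ran from 144 to 6556 in heterozygous and from 742 to 20253 in wild-type brains. Pphln1 itself measured 269 to 353 in heterozygous and 290 to 314 in wild-type brains at 1434822_at (log2 difference 0.08, SE 0.11, limma adjusted p = 0.970). At the dimmer 1435766_at it measured 30.6 to 44.4 in heterozygous and 46.3 to 63.2 in wild-type brains (-0.36, SE 0.18, limma adjusted p = 0.956). There the genotypes did not overlap, which held in the lower direction for 4.82% of all tested probe sets. Neither Pphln1 probe set passed the test.

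Fv1, on chromosome 4, encodes a gag-like protein that blocks incoming murine leukaemia virus after cell entry, in a way that depends on the allele a mouse strain carries. Its probe set 1422279_at measured 19.9, 6.34 and 22.8 in heterozygous brains 1, 2 and 3, against 57.3, 50.2 and 26.9 in wild-type brains 1, 2 and 3. The genotypes were separated, although wild-type brain 3 lay only just above the highest heterozygous brain. The means were 16.4 ± 8.80 in heterozygous and 44.8 ± 15.9 in wild-type brains (SD, n = 3 each). The log2 difference of Fv1 was -0.91 (SE 0.27, limma adjusted p = 0.956, unadjusted p = 0.00585), a fold of 0.53 with an unadjusted 95% interval of 0.35 to 0.80. The two-sided exact permutation p was 0.1, the smallest that 3 against 3 brains can give. Genotypes were separated in the lower direction for 4.82% of all tested probe sets, and 29 of the 27022 (0.107%) had a log2 difference as low as that of Fv1 or lower. Fv1 was chosen with earlier results of these data known, and it entered the test through its wild-type brains. Its place among all probe sets therefore does not measure how rare such a difference is.

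The Fv1 signal was dim, and its heterozygous mean lay below the dim limit, so the probe set entered the test through the wild-type brains. The size of its difference depended on the pseudocount, at -1.50 when 1 was added before the log and -0.43 when 64 was added. It stayed below 0 in all 15 alternatives that gave a value, with a limma adjusted p of 0.595 or more. Without heterozygous brain 2, the lowest of the 6, it was -0.67, and without wild-type brain 3 it was -1.15. The within-group spread of Fv1 on the log2 scale was larger than that of 95.6% of tested probe sets.

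**Figure D1:**
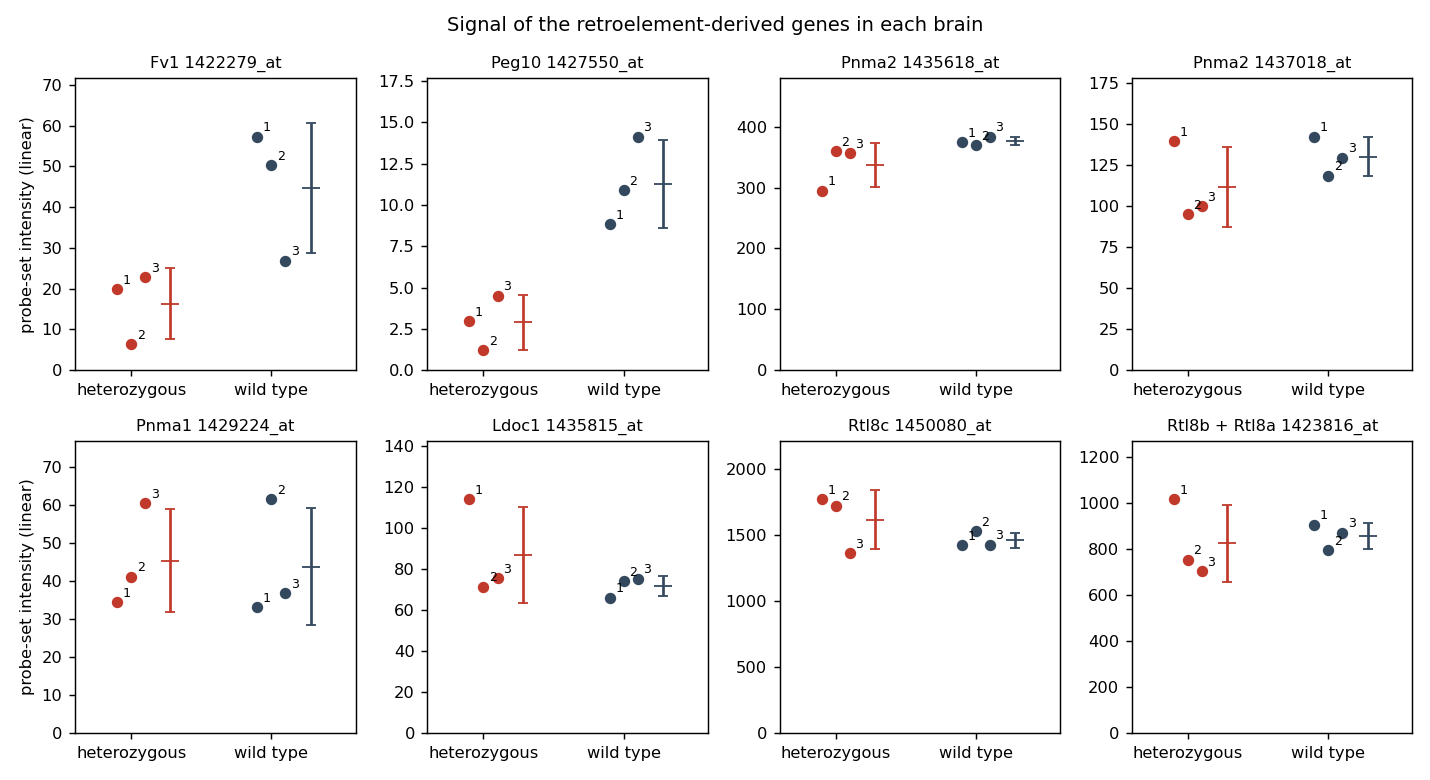
Probe-set intensity (linear scale, each axis from 0) in each heterozygous and wild-type brain, numbered 1 to 3, with the mean and SD of each genotype beside the points. Fv1 and Peg10 are lower in all 3 heterozygous brains than in the wild-type brains, and the Pnma1, Ldoc1 and Rtl8c groups overlap.

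Of the 3 measured protein-coding genes on each side of Fv1 in the RefSeq gene order, 4 were higher and 2 lower in sign, and none was called. Miip, the nearest measured gene on 1 side, measured 89.9 in heterozygous and 70.5 in wild-type brains on average (log2 difference 0.30, SE 0.16, limma adjusted p = 0.956). Mfn2, the mitochondrial fusion gene on the other side, averaged 620.2 in heterozygous and 591.5 in wild-type brains (0.07, SE 0.12). The zinc finger genes Zfp979 and Zfp991, farther along the Miip side, lay at 0.12 (SE 0.24) and -0.18 (SE 0.25).

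Peg10, on chromosome 6, is an imprinted gene expressed from the paternal copy, whose protein is made by ribosomal frameshifting as in its retroelement ancestor, and it is needed for the mouse placenta. Its single probe set 1427550_at measured 2.97, 1.22 and 4.52 in heterozygous brains 1, 2 and 3, against 8.82, 10.9 and 14.1 in wild-type brains 1, 2 and 3. Every heterozygous brain was lower than every wild-type brain, but all 6 values lay below the dim limit and the probe set was not tested. In a fit without the dim filter its log2 difference was -0.53 (SE 0.16, limma adjusted p = 0.955). Among the 18015 probe sets at or below the dim limit, 4.02% were likewise lower in every heterozygous brain. Sgce, the imprinted sarcoglycan gene next to Peg10, measured 275, 364 and 342 in heterozygous brains, against 287, 348 and 299 in wild-type brains. The Sgce groups overlapped and differed by 0.06 on the log2 scale (SE 0.12, limma adjusted p = 0.975). Casd1, on the far side of Sgce, was lower in each heterozygous brain, at 862, 906 and 914 against 1015, 1014 and 951 in wild-type brains (-0.15, SE 0.08, limma adjusted p = 0.956).

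Pnma2, on chromosome 14, encodes a neuronal paraneoplastic antigen that can form capsid-like particles. The brighter probe set 1435618_at measured 295, 359 and 357 in heterozygous brains 1, 2 and 3, against 375, 370 and 384 in wild-type brains 1, 2 and 3. All heterozygous values lay below all wild-type values, by a narrow margin for brains 2 and 3, and the exact permutation p was 0.1. The log2 difference was -0.16 (SE 0.10, limma adjusted p = 0.956), a fold of 0.90 with an interval of 0.77 to 1.05. The dimmer 1437018_at measured 139, 95.1 and 99.9 in heterozygous brains, against 142, 118 and 129 in wild-type brains, so its groups overlapped through heterozygous brain 1. Its log2 difference was -0.21 (SE 0.15, limma adjusted p = 0.956), with an exact permutation p of 0.3. The Pnma2 probe sets had the same sign but disagreed on brain 1, which was the lowest heterozygous brain at 1435618_at and the highest at 1437018_at. Without heterozygous brain 1 their differences were -0.07 at 1435618_at and -0.36 at 1437018_at.

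Pnma1, on chromosome 12, encodes the related Ma1 antigen. Probe set 1429224_at measured 34.4, 41.1 and 60.4 in heterozygous brains 1, 2 and 3, against 33.1, 61.3 and 36.7 in wild-type brains 1, 2 and 3. In each genotype 1 brain stood near 60 and the others between 33.1 and 41.1, so the groups covered nearly the same range. The log2 difference was 0.05 (SE 0.22, limma adjusted p = 0.990, exact permutation p = 0.8). Its interval, a fold of 0.74 to 1.45, was the widest on the log2 scale among the members other than Fv1. Its sign turned when heterozygous brain 3, wild-type brain 1 or wild-type brain 3 was left out (-0.12, -0.08 and -0.03).

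Ldoc1 and the Rtl8 genes lie on the X chromosome, so each of these male brains carries 1 copy of them. Ldoc1 encodes a short gag-like leucine zipper protein that acts in the mouse placenta. Probe set 1435815_at measured 114, 71.3 and 75.4 in heterozygous brains 1, 2 and 3, against 66.0, 74.0 and 75.0 in wild-type brains 1, 2 and 3. Heterozygous brain 1 stood alone, and the other 5 brains lay within 66.0 to 75.4. The log2 difference of 0.21 (SE 0.17, limma adjusted p = 0.956, exact permutation p = 0.4) became 0.03 without heterozygous brain 1.

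The Rtl8 genes encode small gag-like proteins and lie close together. The array measured Rtl8c alone, and Rtl8a only jointly with Rtl8b. Their upstream sequences are shown because the copies differ in what they share. They run 5′ to 3′ over the 250 bases before each annotated start in RefSeq, build GRCm38.p6, and the capitals mark the longest run that Rtl8b and Rtl8c have in common.
Rtl8c, chrX:53607672-53607921, plus strand: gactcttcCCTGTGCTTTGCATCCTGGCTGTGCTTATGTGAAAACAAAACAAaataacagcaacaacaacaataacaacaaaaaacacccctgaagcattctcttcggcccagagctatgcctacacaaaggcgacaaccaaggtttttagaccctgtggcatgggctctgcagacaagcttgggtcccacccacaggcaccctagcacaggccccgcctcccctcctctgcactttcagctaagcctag
Rtl8b, chrX:53670438-53670687, minus strand: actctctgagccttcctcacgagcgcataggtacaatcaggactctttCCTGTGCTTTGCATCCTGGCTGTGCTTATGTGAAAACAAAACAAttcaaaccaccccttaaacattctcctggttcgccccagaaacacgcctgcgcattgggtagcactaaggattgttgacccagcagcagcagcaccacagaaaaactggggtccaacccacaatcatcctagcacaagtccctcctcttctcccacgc
Rtl8a, chrX:53643764-53644013, minus strand: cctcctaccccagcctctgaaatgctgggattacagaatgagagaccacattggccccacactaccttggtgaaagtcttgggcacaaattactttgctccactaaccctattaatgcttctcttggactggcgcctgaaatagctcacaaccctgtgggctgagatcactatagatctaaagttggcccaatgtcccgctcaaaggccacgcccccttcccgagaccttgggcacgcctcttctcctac
The run shared by Rtl8b and Rtl8c is 44 bases long, and no other gene among the 27025 with a window in the table holds it. Upstream of their starts, Rtl8a and Rtl8b have at most 10 bases in a row in common, and Rtl8a and Rtl8c at most 9. Just after their starts Rtl8a and Rtl8b share a run of 27 bases.

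Rtl8c, at 1450080_at, measured 1768, 1721 and 1359 in heterozygous brains 1, 2 and 3, against 1423, 1526 and 1426 in wild-type brains 1, 2 and 3. Heterozygous brains 1 and 2 lay above all wild-type brains and heterozygous brain 3 below them. The log2 difference of Rtl8c was 0.14 (SE 0.10, limma adjusted p = 0.956, exact permutation p = 0.4), a fold of 1.10 with an interval of 0.94 to 1.29. It was 0.26 without heterozygous brain 3 and 0.07 without heterozygous brain 1. The joint Rtl8a and Rtl8b probe set 1423816_at, which is no member because it names both genes, measured 1015, 753 and 703 in heterozygous brains, against 906, 794 and 871 in wild-type brains. Its log2 difference was -0.07 (SE 0.13, limma adjusted p = 0.974), and the groups overlapped with heterozygous brain 1 highest of all. Heterozygous brain 1 was thus the highest of the 6 brains at Ldoc1, at Rtl8c and at the joint probe set.

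**Figure D2:**
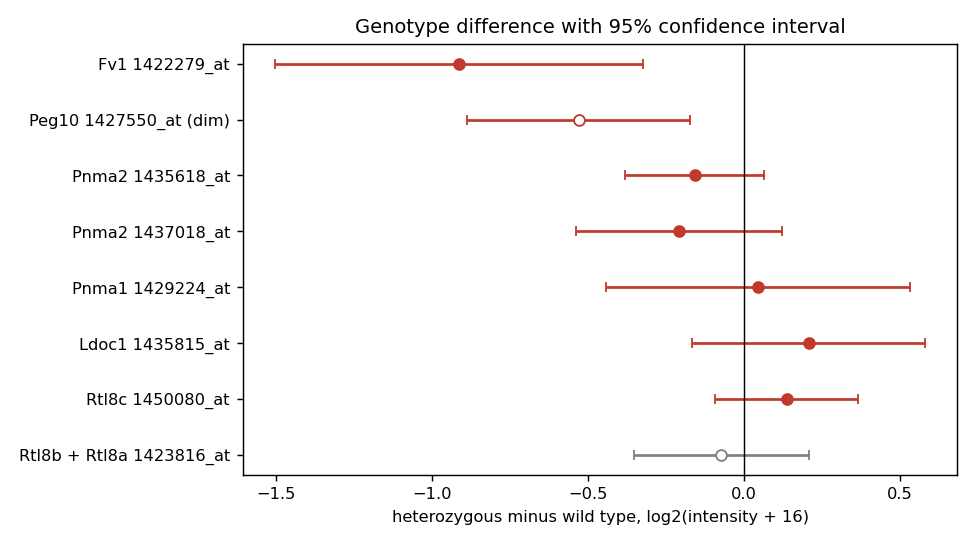
Log2 difference, heterozygous minus wild type, with its unadjusted 95% confidence interval for each probe set. Filled points were tested members, the open red point is Peg10 from the fit without a dim filter, and the open grey point is the joint Rtl8a and Rtl8b probe set. The Fv1 and Peg10 intervals lie below 0 and the others span it.

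Fv1 and Peg10 had the most negative differences, and the other genes lay closer to 0. The heterozygous means of Fv1 and Peg10 lay below the dim limit, but a low heterozygous mean is itself part of a negative difference. The wild-type mean of Peg10, 11.3, lay below the limit as well, and its difference came from the fit without a dim filter. Over the 5 tested probe sets other than Fv1, log2 differences ran from -0.21 to 0.21, and their intervals reached folds of 0.69 at the lowest and 1.496 at the highest. None of these intervals reached a halving of the signal. The within-group SD on the log2 scale was larger in heterozygous than in wild-type brains for Ldoc1 (0.31 and 0.08), for Rtl8c (0.21 and 0.06) and for Pnma2 (0.15 and 0.03 at 1435618_at, 0.26 and 0.12 at 1437018_at). It was 0.43 in heterozygous and 0.41 in wild-type brains for Fv1, 0.31 and 0.35 for Pnma1, and 0.13 and 0.14 for Peg10. The difference in spread was not tested.

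The wider families of the same origin showed small differences. In the RTL (Ty3/gypsy) family, 4 of 12 genes were tested, 3 higher and 1 lower in sign, with a median log2 difference of 0.13 beside 0.01 over all 13024 genes tested. None of them was called. Besides Ldoc1 and Rtl8c, Rtl5 lay at 0.12 (SE 0.13) and Rtl6 at -0.06 (SE 0.12). Rtl3 and Peg10 were dim, and 6 genes of the family, Rtl1 among them, had no probe set of their own.

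In the PNMA family, 7 of 11 genes were tested, with 5 higher and 2 lower in sign and none called (median 0.05). Pnma2 and Pnma3 were lowest by test statistic, at -0.16 and -0.02. Zcchc18 and Ccdc8 were highest. Zcchc18, a PNMA relative with a zinc knuckle, measured 2000, 1821 and 1923 in heterozygous brains, against 1738, 1774 and 1694 in wild-type brains. Its genotypes did not overlap, and its log2 difference was 0.14 (SE 0.08, limma adjusted p = 0.956). Of the 7 tested genes, groups were separated for 2 in the higher direction, Zcchc18 and Zcchc12 (0.08, SE 0.08), and for 1 in the lower direction, Pnma2. Over all genes the share was 10.2% in either direction. The lists were chosen with earlier results of these data known, so these counts support no shift of the family. Ccdc8 lay at 0.29 (SE 0.27), with means of 33.0 in heterozygous and 22.6 in wild-type brains and overlapping groups.

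Of 7 other genes listed as retroelement-derived, Fv1 included, 3 were tested. All 3 were lower in sign at the brightest probe set, beside 48.0% of all genes. Fv1 entered the test through its wild-type brains, so this count supports no shift of the list. The tested genes beside Fv1 were Gin1, which derives from an integrase, at -0.07 (SE 0.16), and Arc, at -0.01 (SE 0.16). Arc is the synaptic plasticity gene whose protein forms gag-like capsids. The sign of Gin1 depended on the probe set, as its dimmer 1429118_a_at lay at 0.44 (SE 0.32) with overlapping groups. Arc measured 423, 561 and 423 in heterozygous brains, against 365, 489 and 573 in wild-type brains, so the groups overlapped fully. Genes that derive from DNA transposons, which move without an RNA copy, had 7 of 13 tested members higher and 6 lower in sign (median 0.03) and no call. Pgbd5, a piggyBac transposase relative expressed in neurons, measured 1057, 965 and 934 in heterozygous brains, against 891, 870 and 800 in wild-type brains. The groups did not overlap, and the difference was 0.20 on the log2 scale (SE 0.09, limma adjusted p = 0.956, unadjusted p = 0.0391). Pgbd1 lay at 0.18 (SE 0.18), Cenpb, a centromere protein gene, at -0.17 (SE 0.12) and Zbed6, a transcriptional repressor gene, at -0.17 (SE 0.24).

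Retrovirus restriction genes, which act against the virus at entry, uncoating, reverse transcription or release, had 17 of 23 members tested. Of these 12 were lower and 5 higher in sign (median -0.10), beside 48.0% of all genes lower, and none was called, against 0.00768% of all genes. Groups were separated for 6 of the 17, 4 lower and 2 higher, against 10.2% of all genes. Fv1 and Bst2, both among the 4 lower, entered the test through their wild-type brains, so these counts support no shift of the list. By test statistic Fv1 and Trim12c were lowest, and Bst2 is named here after its value was seen. Trim12c, a mouse relative of Trim5, measured 27.0, 17.2 and 37.9 in heterozygous brains, against 51.3, 40.8 and 45.2 in wild-type brains (log2 difference -0.53, SE 0.20, limma adjusted p = 0.956). Bst2, also called tetherin, holds budding virions at the cell surface. It measured 8.05, 20.1 and 21.8 in heterozygous brains, against 35.3, 25.8 and 29.2 in wild-type brains (-0.52, SE 0.22, limma adjusted p = 0.956). Trim12c and Bst2 were dim, and the heterozygous mean of Bst2, like that of Fv1, lay below the dim limit.

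On the higher side of the restriction list, Ifitm1, a membrane protein that limits virus entry, measured 86.4, 87.9 and 87.5 in heterozygous brains, against 41.5, 84.1 and 80.5 in wild-type brains. Wild-type brain 1 was the only one far from the others, and the log2 difference was 0.33 (SE 0.20, limma adjusted p = 0.956). Eif2ak2, the double-stranded RNA sensor PKR, measured 34.1, 36.2 and 41.2 in heterozygous brains, against 30.6, 29.5 and 29.4 in wild-type brains (0.21, SE 0.16). Its other tested probe sets lay at 0.15 and -0.11. Samhd1, which depletes the nucleotides that reverse transcription needs, was -0.03 (SE 0.21) by 1434438_at, the probe set used in the counts above, but its probe sets disagreed. At 1420272_at, Samhd1 measured 38.9, 30.95 and 45.3 in heterozygous brains, against 28.6, 21.7 and 21.4 in wild-type brains, with the genotypes separated (0.44, SE 0.18, limma adjusted p = 0.956). The other Samhd1 probe sets lay at 0.57 (SE 0.26) by 1420273_x_at and -0.05 (SE 0.18) by 1418131_at. Serinc3, whose protein lowers the infectivity of virions, had -0.12 (SE 0.08) by its bright 1455550_x_at. The dim 1448847_at gave -0.58 (SE 0.24, limma adjusted p = 0.956), while the other 4 Serinc3 probe sets ran from -0.14 to 0.04. At 1448847_at the heterozygous mean of 12.6 lay below the dim limit, so it entered the test through the wild-type brains. Samhd1 and Serinc3 are named after their values were seen. Immune cells express many of these genes. Summed signals of the 3 genes listed as lymphocyte markers ran from 60.4 to 61.6 in heterozygous and from 72.2 to 74.8 in wild-type brains. Most of that signal was Ptprc, which averaged 39.8 in heterozygous and 52.5 in wild-type brains. Cd79a averaged 14.6 in heterozygous and 13.5 in wild-type brains, and Cd3e 6.55 and 7.47. The means of Cd79a and Cd3e lay at or below the dim limit, so the sums do not measure lymphocytes. Summed signals of the 4 microglial markers ran from 1514 to 1672 in heterozygous and from 1620 to 1894 in wild-type brains. Their part in the restriction gene values was not tested.

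**Figure D3:**
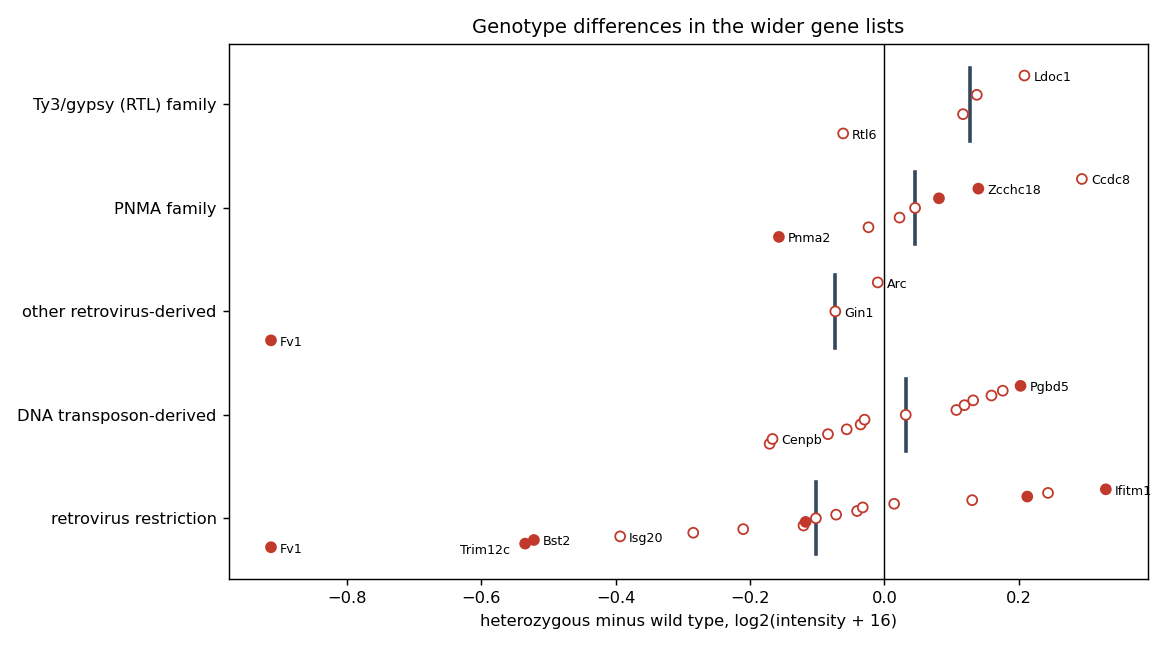
Log2 difference, heterozygous minus wild type, of the brightest tested probe set of each gene in 5 lists, with filled points where the genotypes do not overlap and a bar at each list's median. Fv1 at -0.91 lies apart from the other genes of its lists, and Trim12c and Bst2 follow at -0.53 and -0.52. The list labelled other retrovirus-derived holds Fv1, Gin1 and Arc, not all of them of retroviral origin.

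Of HUSH and its partners, all 7 listed genes were tested. At the brightest probe set 5 were higher and 2 lower in sign (median 0.05), and none was called. The 5 include the disrupted gene Pphln1, at 0.08 by 1434822_at, although its dimmer 1435766_at lay at -0.36. Other signs also depended on the probe set. Trim28 lay at 0.02 by its brightest probe set and -0.04 by the other, and the dimmer probe sets of Mphosph8 lay at 0.08 and -0.08. Setdb1, the H3K9 methyltransferase, measured 240, 219 and 184 in heterozygous brains, against 187, 150 and 151 in wild-type brains. Heterozygous brain 3 fell within the wild-type range, and the log2 difference was 0.36 (SE 0.13, limma adjusted p = 0.956). Morc2a, an ATPase that works with HUSH, lay at 0.22 (SE 0.11), and Mphosph8 and Atf7ip were lowest at -0.06 (SE 0.09) and -0.08 (SE 0.13).

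**Figure D4:**
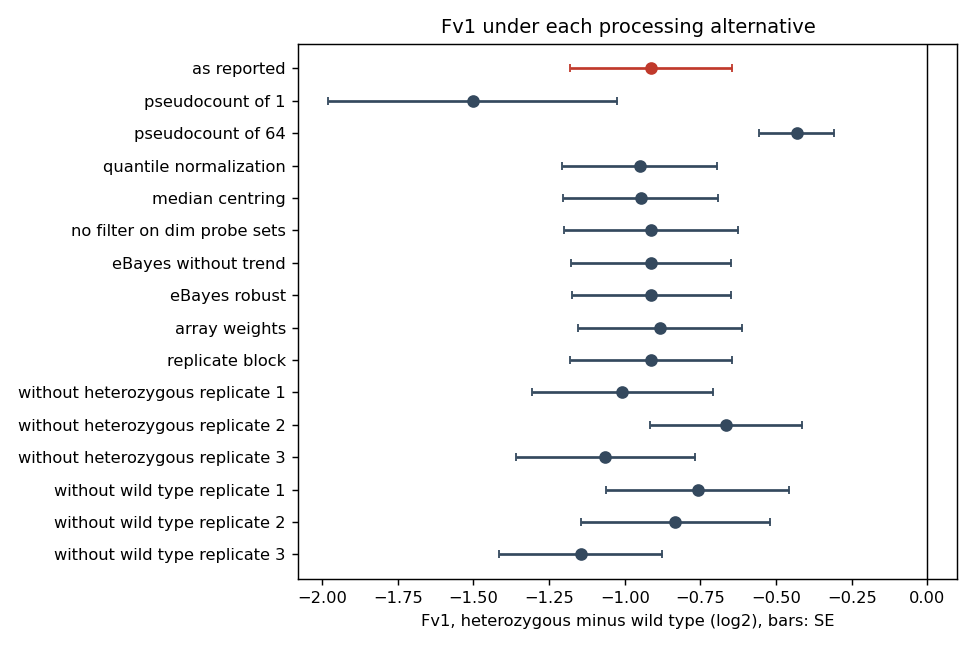
Log2 difference of Fv1, heterozygous minus wild type, with its SE under each processing alternative. All points lie below 0, the lowest at -1.50 (pseudocount 1) and the highest at -0.43 (pseudocount 64).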

How the data were processed

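The deposited table holds 1 linear probe-set intensity per array. The software with which the authors summarised the probes was not named in the labels. The central 96% of values averaged 150.0 on each of the 6 arrays, a common scale set before deposit. The number of arrays limits the precision.

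The 64 manufacturer controls were left out. Of the other 45037 probe sets, the platform annotation gave 1 gene for 34945, several for 932 and none here for 9160. Entrez identifiers gave current symbols for 34741 of them from RefSeq (GRCm38.p6). That table also gave gene order, and 5 of the 7 member genes had an entry in the RefSeq promoter windows. Arrays carry no build, so the printed coordinates are those of the RefSeq windows alone.

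Intensities were taken as log2(value + 16). Probe sets with a mean at or below the 40th percentile (19.1, the dim limit) were removed, which left 27022. Genotypes were compared with limma 3.58.1 (R 4.3.3; lmFit, eBayes with trend, no covariate), two-sided, adjusted over all probe sets, threshold 0.05. Exact permutation tests used the 6 brains. Lists used the brightest tested probe set per gene. The steps were tested on simulated data.

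Members and lists were chosen with earlier results of these data known. Named from each list were the 2 highest and 2 lowest genes by moderated t, and from each member the 3 measured neighbours on each side and the 2 probe sets most like it. Alternatives were other pseudocounts, normalizations, dim limits and eBayes settings, array weights, a replicate block and leaving out each array.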

Additional observations from a re-analysis of the deposited data

How the results depend on the processing

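No member probe set was called under any of the 16 alternatives (lowest limma adjusted p 0.595), and no gene of the wider lists was. The members and the joint Rtl8a and Rtl8b probe set kept their sign except Pnma1 (0.05), which ran from -0.12 to 0.25 with single arrays left out, and the joint probe set (-0.07), which ran from -0.23 to 0.031. Over the whole array, 4 probe sets were called, 1 without a dim filter, 1 without an intensity trend, and 1 to 14 with single arrays left out (14 without heterozygous brain 1, 1 without heterozygous brain 2, 2 without heterozygous brain 3, 2 without wild-type brain 3). Genotypes were separated, in the lower direction, for 2 of the 6 tested member probe sets, beside 4.82% of all tested probe sets. Fv1, 1 of the 2, had entered the test through its wild-type brains, so this count supports no shift of the members. With the 60th percentile as dim limit the count became 1, because Fv1 fell below it. The count of restriction genes lower in sign, recomputed after the data had been seen, was 10 to 13 of 17 except with that limit, where 4 of 7 remained. With the replicate block 4 probe sets and no member were called. Deviations of same-numbered arrays correlated at 0.09, 0.20 and -0.02, and heterozygous brain 3 did not correlate best with its own number, so the numbers were not taken as pairs. The first heterozygous title carries no number and was counted as 1. Fv1, Peg10, Trim12c, Bst2, Ckm and the Serinc3 probe set 1448847_at lay near or below the dim limit, where folds follow the pseudocount.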

Other observations

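Another PNMA gene differed between its probe sets. The brighter probe set of Pnmal1 (now Pnma8a), 1439289_s_at, measured 62.7, 72.9 and 78.2 in heterozygous brains, against 54.2, 68.3 and 90.4 in wild-type brains, and its log2 difference was 0.02 (SE 0.17, limma adjusted p = 0.993). The dimmer 1439288_at, noticed after the values were seen, measured 44.2, 37.9 and 30.4 in heterozygous brains, against 17.2, 19.5 and 24.1 in wild-type brains. There the genotypes did not overlap and differed by 0.56 on the log2 scale (SE 0.19, limma adjusted p = 0.956, unadjusted p = 0.0124).

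The 37 distinct measured neighbours of the 7 genes, Rtl8c beside Rtl8a included, were split into 18 higher and 19 lower in sign (median log2 difference -0.01). None was called or had an unadjusted p below 0.05, and 3 separated the genotypes, beside 10.2% of all genes. These were Casd1 near Peg10, and Fam122b (-0.30, SE 0.18) and Ints6l (0.21, SE 0.10) on either side of the Rtl8 genes. Neither of the latter lies next to them: 4 protein-coding genes lie between Rtl8c and Fam122b, and 25 between Rtl8c and Ints6l. Around Ldoc1 the 6 neighbours stayed within -0.09 to 0.02, among them Fmr1, the fragile X gene, at -0.03 (SE 0.11).

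As a description over the 6 arrays, the probe sets most like Fv1 belonged to Glt8d2 and Galnt4, both glycosyltransferase genes (Pearson r = 0.998 and 0.993). Glt8d2 averaged 60.2 in heterozygous and 74.3 in wild-type brains, and Galnt4 43.2 in heterozygous and 48.0 in wild-type brains. Those most like Peg10 were Eif4ebp2 (r = 0.991) and Nrgn (r = 0.988), and those most like Ldoc1 were Atp5b (r = 0.994) and Mrpl11 (r = 0.990), a subunit gene of the mitochondrial ATP synthase and a mitochondrial ribosomal protein gene. Pnma1 was most like Rmnd1 (r = 0.999) and Sod1 (r = 0.996), and Rtl8c most like Ppp1r16a (r = 0.996) and Eif6 (r = 0.987). For Pnma2 these were Dlg5 (r = 0.996) and Thg1l (r = 0.994) by 1435618_at, and Txnrd3 (r = 0.993) and Cntnap2 (r = 0.992) by 1437018_at. With only 6 arrays such values are common: 148 of 23475 probe sets had an r above 0.9 with Fv1.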
